A study of Arabidopsis thaliana with 12 samples.

Results

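The plastid genome of Arabidopsis thaliana carries a small set of protein-coding genes, and 69 of them were measured in this series, each by 1 probe set that the platform table assigns to a single gene on that genome. They are 69 of 78 gene symbols listed for the plastid in RefSeq, and 69 of 13513 probe sets with a single gene on the array. By function, 7 genes belong to photosystem I and its assembly, 15 to photosystem II, 6 to the cytochrome b6f complex, 6 to the ATP synthase, 10 to the NADH dehydrogenase-like (NDH) complex, 1 to Rubisco, 15 to the plastid ribosome, 4 to the plastid-encoded RNA polymerase and 5 to other tasks.

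The series asks what membrane fluidity contributes to the sensing of low temperature. Whole seedlings at growth stage 1.02 were profiled on 12 ATH1 arrays, from 6 lines with 1 array at ambient temperature and 1 in the cold. They had spent 4 days in a fridge after sowing and then grew on MS medium in a 20 °C room whose lights were on for 16 h and off for 8 h. The labels used here do not say how cold the treatment was or how long it lasted. The lines were the wild type Col-0; Col-aeq, a Columbia line named for apoaequorin, a calcium reporter protein; the EMS mutants fab1 and fad2; the triple mutant fad3/7/8, combined by crossing from EMS mutants and, per its titles, carrying apoaequorin; and 35S-FAD3. fab1 affects the elongation of palmitate, fad2 the oleate desaturase of the endoplasmic reticulum, and fad3, fad7 and fad8 linoleate desaturases; 35S is a viral promoter active in most cells. The arrays of 35S-FAD3 are so named in their titles, while their genotype label reads 35S::apoaequorin; they were grouped by title, and the values of this line rest on that. Since each line gave 1 array per temperature, p-values below use as error the spread left after line and temperature are fitted. This spread is how unlike the temperature changes of the lines were. It does not measure how seedling batches of a line differ at 1 temperature. Nothing in the labels says how many seedlings were pooled for an array.

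Plastid genes are transcribed by 2 kinds of RNA polymerase, a bacterial-type enzyme whose core subunits are encoded by the plastid genes rpoA, rpoB, rpoC1 and rpoC2, and phage-type enzymes encoded in the nucleus. Most plastid genes lie in clusters that are transcribed together into long RNAs, then cut, trimmed and edited, so that neighbouring genes are not independent measurements. The photosynthetic complexes are mosaics: the plastid supplies reaction-centre and core subunits, and the nucleus the rest. Labelling for these arrays starts at poly(A) tails, which mature plastid RNAs largely lack. The signals are MAS5 intensities on a linear scale; signals of different genes depend on their probes and were not set against each other. In whole seedlings, fewer plastids or green cells and less RNA per plastid cannot be told apart.

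The Col-aeq ambient array stood apart. Its ratio of 3′ to 5′ signal was 7.00 for actin and 1.87 for GAPDH, against 1.96 to 2.21 and 0.972 to 1.05 on the ambient arrays of the 5 other lines, and its 25S ribosomal RNA signal was 2462.9 against 134.2 to 311.9. The Col-aeq cold array had an actin ratio of 2.08 within the range of the others (2.04 to 2.19) and a 25S signal of 849.3 above theirs (99.1 to 472.6). Both Col-aeq arrays were therefore left out of the tests and are described apart. The tests rest on 10 arrays of 5 lines, on log2(signal + 1.6), over 13649 probe sets with a mean signal of at least 23.18; a gene passed at a Benjamini-Hochberg adjusted p under 0.05 from limma. Of the 69 plastid genes, 67 were tested, and rps14 and ndhF were too dim.

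**Figure D1:**
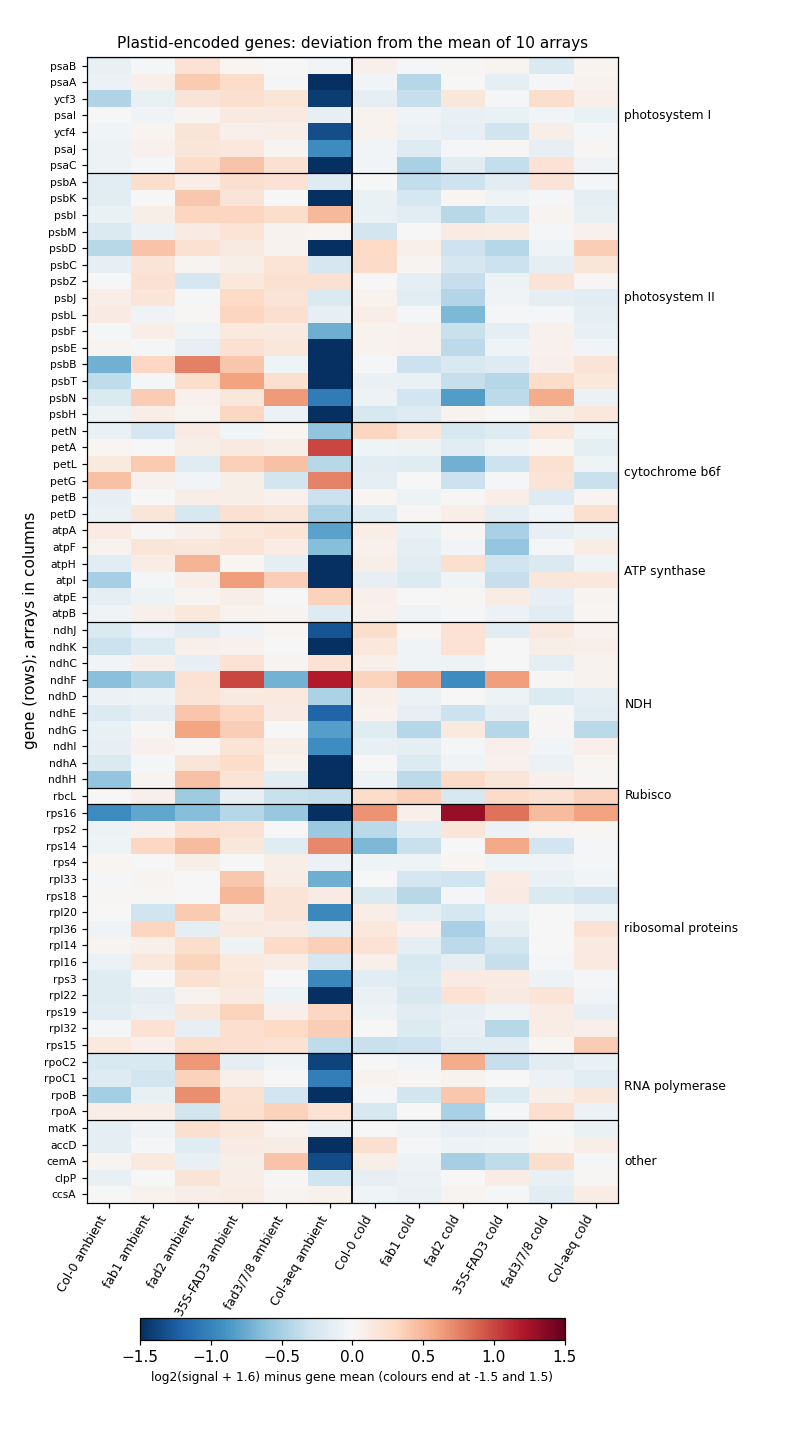
Deviation of each of the 69 plastid genes (rows, by function) on each of the 12 arrays (columns) from the gene's mean over the 10 arrays without Col-aeq, as log2(signal + 1.6); blue is lower, red is higher, and colours end at −1.5 and 1.5. The Col-aeq ambient column is dark blue in many rows of several classes, with a median deviation of −0.59 over the 69 genes, while the Col-aeq cold column has a median of 0.02.

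In the cold, plastid transcripts changed little in size, with a clear exception in rps16. Of 67 tested genes, 2 rose (2.99%, against 16.6% of all tested probe sets) and 15 fell (22.4%, against 22.2%), so the share that fell was near the background and the share that rose was below it. With each array centred on its median, 3 rose and 7 fell. The median difference of cold minus ambient over the tested plastid genes was −0.13 on the log2 scale, against −0.05 over all tested probe sets. A fitted difference of at least 0.5 in size was reached by 1 of the 67, against 17.4% of all tested probe sets.

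rps16, named for a protein of the small ribosomal subunit, had ambient signals of 83.1 in Col-0, 93.2 in fab1, 102.7 in fad2, 119.7 in 35S-FAD3 and 107.8 in fad3/7/8. Only its RNA was measured here. Its cold signals were 258.5, 170.3, 401.0, 285.6 and 225.1 in the same order. Every cold array was above every ambient array, and rps16 was 2.54-fold higher in the cold (log2 difference 1.34, SE 0.137, limma adjusted p = 1.81e-05). It was the only plastid gene whose cold group lay wholly above its ambient group, against 6.66% of all tested probe sets. The Col-aeq arrays gave 53.2 at ambient temperature and 245.6 in the cold.

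rbcL, the large subunit of the carbon-fixing enzyme Rubisco, had signals of 969.9, 1017.5, 669.5, 890.0 and 770.4 at ambient temperature in Col-0, fab1, fad2, 35S-FAD3 and fad3/7/8. In the cold they were 1177.5, 1237.8, 821.7, 1179.4 and 1138.2. rbcL rose in each of the 5 lines (log2 difference 0.36, SE 0.0627, limma adjusted p = 0.000865), while the groups overlapped, the fad2 cold array lying below 3 of the ambient arrays. rps16 and rbcL were the 2 genes higher in the cold in 5 of 5 lines, against 18.0% of all tested probe sets.

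Among the genes that fell, petL, a small subunit of the cytochrome b6f complex, changed most. Its signals went from 1024.1 to 822.5 in Col-0, from 1216.0 to 814.0 in fab1, from 818.9 to 561.3 in fad2, from 1181.7 to 744.4 in 35S-FAD3 and from 1255.6 to 1088.0 in fad3/7/8. petL fell by 0.46 on the log2 scale (SE 0.0745, limma adjusted p = 0.000556), lower in the cold in 5 of 5 lines with overlapping groups. The other 5 members of the cytochrome complex did not pass and lay between −0.13 and 0.09.

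For the ribosome, rps15, a protein of the small subunit, had ambient signals of 294.0, 279.5, 318.1, 315.5 and 307.6 and cold signals of 210.2, 213.7, 235.0, 237.0 and 269.5, in the order Col-0, fab1, fad2, 35S-FAD3 and fad3/7/8. It was the only plastid gene whose cold arrays all lay below its ambient arrays, against 9.30% of all tested probe sets. It fell by 0.38 (SE 0.0717, limma adjusted p = 0.00158). The Col-aeq arrays went in the opposite direction, with 202.4 at ambient temperature and 345.1 in the cold.

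rps18, of the small subunit, went from 390.9 to 331.2 in Col-0, from 390.4 to 289.7 in fab1, from 388.6 to 381.6 in fad2, from 545.8 to 420.9 in 35S-FAD3 and from 443.9 to 332.4 in fad3/7/8. It was lower in the cold in each line, least in fad2 (log2 difference −0.30, SE 0.0763, limma adjusted p = 0.00986). rpl33, of the large subunit, went from 1182.3 to 1211.7 in Col-0, from 1234.1 to 998.9 in fab1, from 1211.4 to 975.3 in fad2, from 1598.8 to 1300.5 in 35S-FAD3 and from 1300.9 to 1125.9 in fad3/7/8. It was higher in Col-0 and lower in the 4 other lines (log2 difference −0.22, SE 0.0650, limma adjusted p = 0.0208). With rpl16 (−0.26), 4 of the 14 tested ribosomal genes fell and 1, rps16, rose.

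In photosystem II, 2 of 15 genes passed as falls, both small membrane subunits, while the fitted difference was below 0 in all 15. The reaction-centre and antenna genes psbA (−0.26), psbD (−0.17), psbB (−0.28) and psbC (−0.16) did not pass. Nor did psbN, at −0.41 (limma adjusted p = 0.0551). Passing thus does not set the small subunits apart from the core in size. psbJ went from 767.6 to 740.9 in Col-0, from 812.7 to 633.8 in fab1, from 709.7 to 527.1 in fad2, from 881.5 to 688.4 in 35S-FAD3 and from 815.5 to 649.7 in fad3/7/8. It was lower in the cold in each line, least in Col-0 (log2 difference −0.30, SE 0.0683, limma adjusted p = 0.00463). psbI was 531.4 in Col-0 at both temperatures, and went from 604.7 to 511.1 in fab1, from 710.3 to 425.4 in fad2, from 711.7 to 474.5 in 35S-FAD3 and from 685.0 to 586.9 in fad3/7/8. It thus did not move in Col-0 and was lower in the 4 other lines (log2 difference −0.36, SE 0.0985, limma adjusted p = 0.0141).

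**Figure D2:**
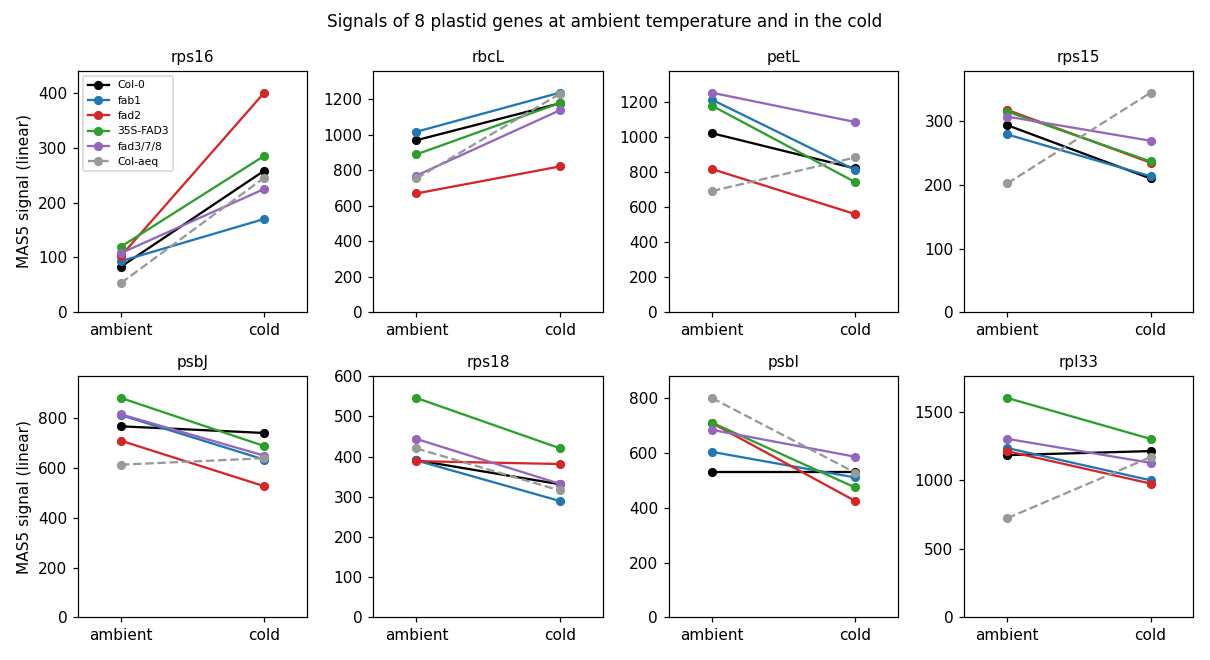
MAS5 signals (linear, y axes from 0) of the 2 plastid genes that rose and the 6 with the lowest adjusted p among those that fell in the cold, with 1 line per plant line joining its ambient and its cold array; the dashed grey line is Col-aeq, which was not in the tests. rps16 ran from 83.1–119.7 to 170.3–401.0 without overlap, while the ambient and cold values of rbcL, petL, psbJ, rps18, psbI and rpl33 overlapped.

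In photosystem I, psaC, the iron-sulphur protein of the acceptor side, psaA, a reaction-centre subunit, and psaJ, a small subunit, fell, which makes 3 of 7. psaC went from 752.1 to 769.3 in Col-0, from 786.4 to 568.1 in fab1, from 961.1 to 707.5 in fad2, from 1070.9 to 619.4 in 35S-FAD3 and from 927.4 to 920.0 in fad3/7/8. Its fitted difference was −0.34 (SE 0.107, limma adjusted p = 0.0284), with the falls in fab1, fad2 and 35S-FAD3 and little movement in the other lines; in the fit with all 12 arrays it was 0.15. The reaction-centre partner psaB was at −0.04 and did not pass, while psaA was at −0.25 (limma adjusted p = 0.0332) and psaJ at −0.15 (0.044). With all 12 arrays psaA was at 0.83 (limma adjusted p = 0.421) and psaJ at 0.03 (0.867).

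In the ATP synthase, atpF and atpA fell, 2 of 6. atpF, a subunit of the stalk, went from 1330.0 to 1345.9 in Col-0, from 1450.3 to 1161.4 in fab1, from 1444.2 to 1246.5 in fad2, from 1471.9 to 856.1 in 35S-FAD3 and from 1387.8 to 1263.0 in fad3/7/8. The cold array of 35S-FAD3 was the lowest by far (log2 difference −0.29, SE 0.0956, limma adjusted p = 0.0343). The catalytic subunit gene atpB and atpE of the same cluster were at −0.11 and 0.03 and did not pass.

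In the NDH complex, which returns electrons from ferredoxin to the plastoquinone pool, 1 of 9 tested genes fell. ndhG went from 97.0 to 92.7 in Col-0, from 106.6 to 77.7 in fab1, from 159.7 to 116.8 in fad2, from 136.8 to 77.5 in 35S-FAD3 and from 105.9 to 106.3 in fad3/7/8. It was near level in Col-0 and fad3/7/8 and lower in the other 3 lines (log2 difference −0.35, SE 0.115, limma adjusted p = 0.0316).

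Of the plastid-encoded RNA polymerase, rpoA fell, and rpoB, rpoC1 and rpoC2 lay between −0.00 and 0.02. rpoA, which encodes the alpha subunit and lies in the ribosomal protein cluster, went from 428.4 to 338.3 in Col-0, from 427.2 to 398.0 in fab1, from 330.0 to 285.2 in fad2, from 474.1 to 392.5 in 35S-FAD3 and from 506.8 to 474.9 in fad3/7/8. It was lower in each line (log2 difference −0.20, SE 0.0676, limma adjusted p = 0.0338). Among the remaining genes, cemA, an envelope protein, went from 892.2 to 923.4 in Col-0, from 955.8 to 820.4 in fab1, from 804.6 to 613.1 in fad2, from 922.3 to 666.5 in 35S-FAD3 and from 1166.3 to 1044.5 in fad3/7/8. It was the 1 of 5 that fell (log2 difference −0.24, SE 0.0769, limma adjusted p = 0.0298), with Col-0 moving the other way; in the fit with all 12 arrays it was 0.02.

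Which genes passed as falls depended on the lines in the fit. In 5 of 5 lines 10 of the 69 genes were lower in the cold (25% of all tested probe sets were): atpA, psbZ, rps4, petA, psbJ, petL, rps18, rpoA, ccsA and rps15. Leaving out each line in turn gave 28 genes that fell without Col-0, 7 without fab1, 6 without fad2, 4 without 35S-FAD3 and 14 without fad3/7/8, and rps16, rbcL, petL, rps15, psbJ and rps18 passed each time. psbI did not pass without fad2 or without 35S-FAD3 (limma adjusted p up to 0.0629, log2 differences −0.26 and −0.30). rpl33, psaC, cemA, ndhG and atpF did not pass without fab1, fad2 or 35S-FAD3 (up to 0.129), nor rpoA without Col-0, fad2 or 35S-FAD3 (up to 0.112). The difference itself often moved little, as for cemA without fab1 (−0.24), ndhG without fab1 (−0.33) and atpF without fad2 (−0.30), and it was smaller without 35S-FAD3 for atpF (−0.16), psaC (−0.22) and ndhG (−0.24). With both Col-aeq arrays added, rps16 and rbcL passed as risers and 4 of the 15, psbI, psbJ, rpoA and rps18, passed as falls, where 15.1% and 18.3% of all tested probe sets passed; the fitted difference changed sign in 24 of the 67 genes, among them 4 that had passed, psaA, psaC, psaJ and cemA.

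Genes of 1 cluster can be read side by side. In the cluster petL-petG-psaJ-rpl33-rps18 the log2 differences in the cold were −0.46, −0.11, −0.15, −0.22 and −0.30, and all but petG passed. In psbE-psbF-psbL-psbJ they were −0.11, −0.12, −0.26 and −0.30, and psbJ alone passed. In rpoB-rpoC1-rpoC2 they were −0.00, 0.02 and 0.00.

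Nuclear partners of the same complexes were read for comparison, from lists of which the array names few genes; their counts stand against 16.6% higher and 22.2% lower over all tested probe sets. Of nuclear photosynthesis genes 5 of 8 fell, PSBW (−0.36, limma adjusted p = 0.000223), LHCB4.2 (−0.46, 0.000228), LHCB4.1 (−0.31, 0.00187), PSAN and PSBY. Their summed signal was 22030.8 to 26103.6 over the 5 ambient arrays and 19956.8 to 22956.6 over the 5 cold arrays. Of 3 nuclear NDH subunits NdhS (−0.75) and NdhL (−0.34) fell, and both nuclear proteins of the plastid ribosome fell (−0.18 and −0.16). RPOTMP, a phage-type RNA polymerase encoded in the nucleus, rose (0.61, SE 0.169, limma adjusted p = 0.0148) at low signals of 13.5 to 37.2. Of 7 root markers 3 fell, with a median of −0.22, and their summed signal ranged over 2753.6 to 3314.5 on ambient arrays and over 2559.4 to 3006.9 on cold arrays, with none at 0; without PYK10 the ranges were 388.1 to 897.2 and 270.4 to 708.5, and the part of these markers in the plastid values was not tested. Of 5 tested mitochondrial genes 1, cox1, rose (0.50, limma adjusted p = 0.00113).

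The direction of the cold change was not alike across lines. In Col-0, 49 of 69 plastid genes were higher in the cold, 19 lower and 1 equal, with a median difference of 0.09. The 4 other tested lines ran the other way: 54 genes were lower in fab1 (median −0.15), 58 in fad2 (−0.24), 61 in 35S-FAD3 (−0.27) and 51 in fad3/7/8 (−0.11). The medians of all 13649 probe sets lay between −0.06 and −0.03 in the same 5 lines, and 53.8% to 56.3% of them were lower in the cold.

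**Figure D3:**
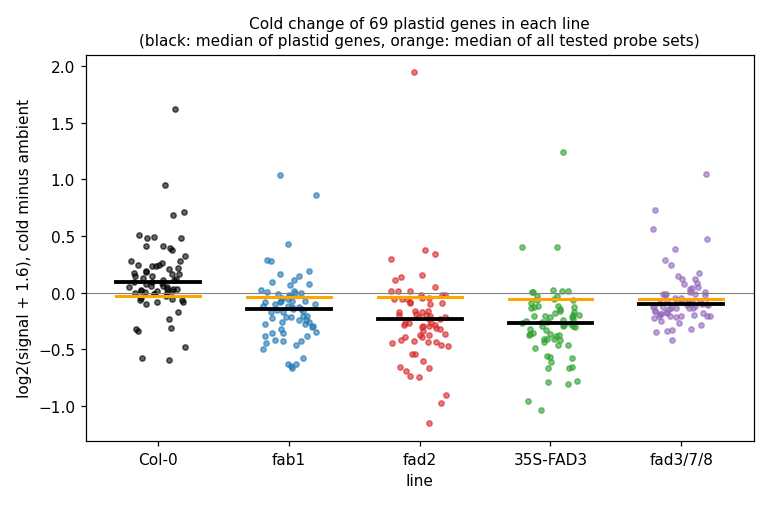
Cold minus ambient difference in log2(signal + 1.6) for the 69 plastid genes, with 1 point per gene, in each of the 5 tested lines; black bars are medians of the plastid genes and orange bars medians of all 13649 tested probe sets. The black bar is at 0.09 in Col-0 and between −0.27 and −0.11 in the 4 other lines; the highest point is rps16 in each line except fab1, where it is the dim ndhF.

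The difference was visible on single genes. psbD, the D2 reaction-centre protein of photosystem II, went from 817.8 to 1336.6 in Col-0, but from 1464.5 to 1151.4 in fab1, from 1274.5 to 875.7 in fad2, from 1200.3 to 807.2 in 35S-FAD3 and from 1130.4 to 1043.8 in fad3/7/8. Col-0 had the lowest ambient and the highest cold signal of the 5 lines. psbB, the inner antenna protein CP47, went from 288.7 to 464.6 in Col-0, from 589.4 to 379.3 in fab1, from 803.5 to 406.4 in fad2, from 635.2 to 415.3 in 35S-FAD3 and from 453.7 to 502.3 in fad3/7/8. Here the Col-0 ambient array was the lowest of all 10.

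The Col-0 ambient array was low for most plastid genes. At ambient temperature 55 of 69 genes were above Col-0 in fab1, 52 in fad2, 65 in 35S-FAD3 and 64 in fad3/7/8. Median log2 differences of the plastid genes from Col-0 were 0.12, 0.24, 0.25 and 0.18, against −0.005 to 0.02 over all tested probe sets. In the cold the counts were 14, 26, 27 and 37. The medians there were −0.13, −0.08, −0.11 and 0.01, against −0.01 to 0.01 over all tested probe sets. These counts share the Col-0 arrays. On the same Col-0 ambient array the summed signal of the 8 nuclear photosynthesis genes was the lowest of the ambient arrays, 22030.8 against 24300.2 to 26103.6 on the 4 others tested, and its actin ratio was 2.06 within their range; what this has to do with the plastid values was not tested.

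The planned comparison of cold changes set the 3 lipid mutants fab1, fad2 and fad3/7/8 against Col-0 and 35S-FAD3. No plastid gene and no other probe set passed in limma (0.0% of all tested); at an unadjusted p under 0.05 there were 1 plastid gene and 551 probe sets in all. A difference of at least 0.5 in size was reached by 1 of 67 genes (4.81% of all tested). The lowest p belonged to psaB, petB and rpl14. psaB, of the photosystem I reaction centre, changed by 0.19 in Col-0, −0.01 in fab1, −0.20 in fad2, 0.01 in 35S-FAD3 and −0.21 in fad3/7/8 (log2 difference of the groups −0.24, SE 0.105, limma adjusted p = 0.999). petB, cytochrome b6, changed by 0.15, −0.08, −0.08, 0.01 and −0.26 in the same order (−0.22, SE 0.10, limma adjusted p = 0.999). rpl14, of the large ribosomal subunit, changed by 0.18, −0.20, −0.67, −0.20 and −0.29 (−0.38, SE 0.185, limma adjusted p = 0.999). For each of these, Col-0 had the highest value.

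A comparison of the cold change in the 4 altered lines with Col-0 alone was added after these values had been seen. No plastid gene passed in limma, nor did any other probe set. At an unadjusted p under 0.05 there were 18 of 67 plastid genes, against 680 of 13649 probe sets. A difference below 0 was found in 58 of the 67, against 6889 of the 13649. These counts restate the Col-0 pattern that prompted the comparison, and all its differences share the Col-0 arrays. The median difference was −0.30 for plastid genes and −0.00 for all. psbD was at −1.10 (SE 0.184, limma adjusted p = 0.478), psbC at −0.71 (SE 0.137, adjusted p = 0.478) and psbB at −1.20 (SE 0.322, adjusted p = 0.917). Since Col-0 had 1 array per temperature, the line and its arrays cannot be told apart.

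Among the lines, fad2 had the most plastid genes that differed from Col-0 over both temperatures. It also had the most among all tested probe sets, with 821 higher and 770 lower of 13649. Of 67 plastid genes 6 were higher in fad2 (8.96%, against 6.02% of all tested probe sets) and 2 were lower (2.99%, against 5.64%), a split that became 3 higher and 7 lower with each array centred on its median. The median difference was 0.10, against 0.01 over all tested probe sets. Those higher included 2 of the 4 RNA polymerase genes, rpoB and rpoC2, with the ribosomal genes rps2 and rps3, ndhH and psbM; those lower were rbcL and petL. A difference of at least 0.5 in size was reached by 6 of the 67 genes for fad2 (15.1% of all tested probe sets), 0 for fab1 (4.87%), 1 for 35S-FAD3 (8.64%) and 3 for fad3/7/8 (10.4%). All line comparisons below share the Col-0 arrays.

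rpoC2, the beta'' subunit of the polymerase, had signals of 505.8 and 473.4 in fad2 at ambient temperature and in the cold, against 274.6 and 323.0 in Col-0, 273.5 and 311.4 in fab1, 292.4 and 252.8 in 35S-FAD3 and 306.9 and 284.7 in fad3/7/8. Both fad2 arrays were above all 8 others (log2 difference from Col-0 0.71, SE 0.130, limma adjusted p = 0.00651). rpoB, the beta subunit, had 126.7 and 102.5 in fad2 against 53.7 and 76.3 in Col-0, 71.3 and 63.7 in fab1, 91.0 and 66.9 in 35S-FAD3 and 62.9 and 82.4 in fad3/7/8. Again both fad2 arrays were the highest (0.82, SE 0.216, limma adjusted p = 0.0331).

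The other polymerase genes did not pass. rpoC1, between rpoB and rpoC2 in the same cluster, was 1339.6 and 1099.9 in fad2 against 925.1 and 1095.3 in Col-0 (log2 difference 0.27, SE 0.131, limma adjusted p = 0.21). rpoA, of another cluster, was 330.0 and 285.2 in fad2 against 428.4 and 338.3 in Col-0 (−0.31, SE 0.107, limma adjusted p = 0.0853). rpoC1 was above Col-0 at ambient temperature and close to it in the cold, and rpoA was lower than in any other line at both temperatures.

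rps2, of the small ribosomal subunit, was 1072.2 and 1030.8 in fad2 at ambient temperature and in the cold, 858.5 and 688.3 in Col-0, 948.1 and 810.9 in fab1, 1053.5 and 855.4 in 35S-FAD3 and 901.4 and 933.4 in fad3/7/8. fad2 was the highest line at each temperature, though 35S-FAD3 at ambient temperature lay between its arrays (log2 difference from Col-0 0.45, SE 0.109, limma adjusted p = 0.0227). rps3 was 1512.1 and 1406.2 in fad2 against 1137.7 and 1144.8 in Col-0 (0.35, SE 0.0883, limma adjusted p = 0.0263). ndhH was 177.9 and 159.0 against 86.2 and 123.5 (0.70, SE 0.191, limma adjusted p = 0.0383). For rps3, 35S-FAD3 reached 1437.6 and 1411.4 and so overlapped with fad2.

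psbM, a small subunit of photosystem II, had its lowest signals in Col-0. Its signals at ambient temperature and in the cold were 3121.4 and 3002.3 in Col-0, 3420.7 and 3605.2 in fab1, 3935.7 and 3964.5 in fad2, 4185.8 and 3929.4 in 35S-FAD3 and 3752.5 and 3541.3 in fad3/7/8. Both Col-0 arrays were the lowest of the 10, and Col-aeq, with 3715.5 and 3801.4, was above Col-0 too. The log2 difference from Col-0 was 0.37 in fad2 (SE 0.0750, limma adjusted p = 0.0109) and 0.41 in 35S-FAD3 (limma adjusted p = 0.0263), while fab1 (0.20, 0.429) and fad3/7/8 (0.25, 0.0775) did not pass.

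rbcL was lower in fad2, with the signals given above: 669.5 and 821.7 against 969.9 and 1177.5 in Col-0. fad2 had the lowest rbcL signal of the 5 lines at each temperature (log2 difference −0.53, SE 0.0991, limma adjusted p = 0.00776). petL was 818.9 and 561.3 in fad2 against 1024.1 and 822.5 in Col-0 (−0.44, SE 0.118, limma adjusted p = 0.0358). Here too no other tested line was lower at either temperature, while the Col-aeq ambient array, outside the tests, had 692.6.

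**Figure D4:**
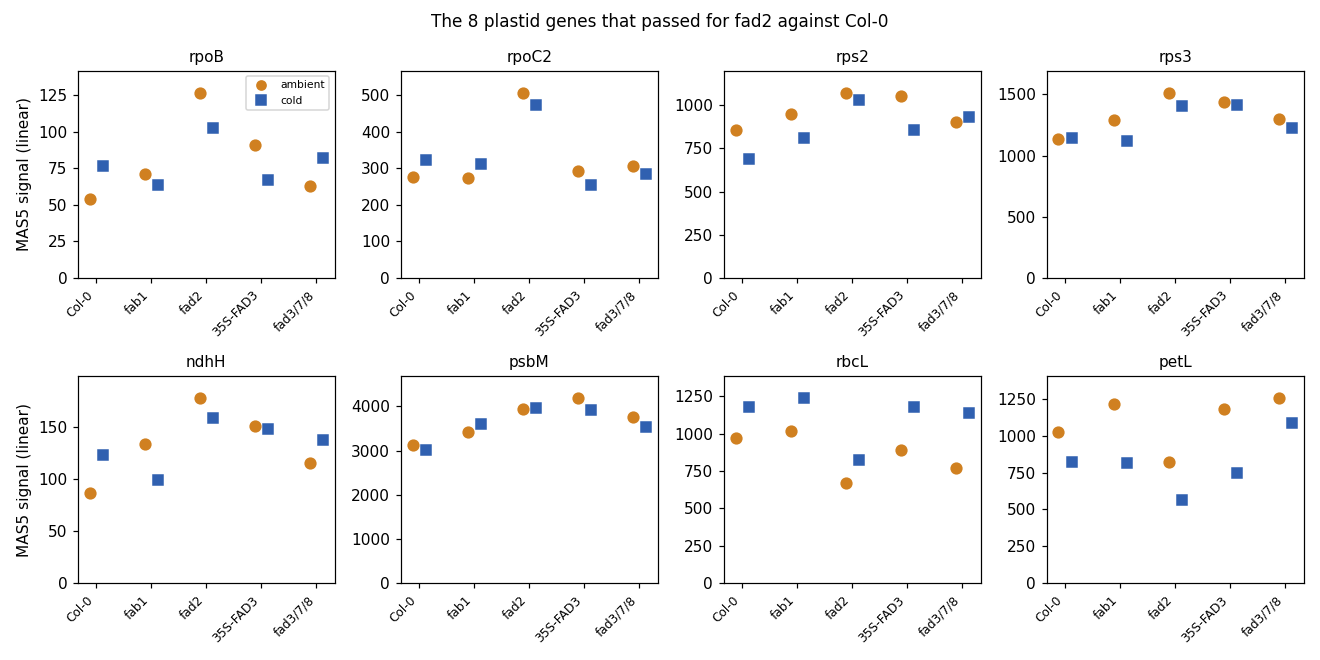
MAS5 signals (linear, y axes from 0) of the 8 plastid genes that passed for fad2 against Col-0, on the 10 tested arrays; orange circles are ambient arrays and blue squares cold arrays. For rpoB and rpoC2 both fad2 points lie above all others, for rbcL and petL fad2 is the lowest line at each temperature, and for psbM both Col-0 points (3121.4 and 3002.3) are the lowest.

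The fad2 result was thin at the level of single arrays. Without the Col-0 ambient array no gene passed as higher and 1 as lower; without the fad2 ambient array 1 was higher and 2 lower; without the fad2 cold array 1 was higher and none lower; and without the Col-0 cold array 8 were higher and 1 lower. With 12 arrays, psbM (limma adjusted p = 0.0334) and rbcL (0.0443) were left. Root markers were higher in fad2, 3 of 7 (against 6.02% of all tested probe sets), with 6 of 7 above 0 and a median of 0.68: AT4G26010, a peroxidase gene, had 291.0 and 199.6 against 28.9 to 104.2 on the 8 other tested arrays. The other 2 were AT5G17820 (log2 difference 0.91) and EXPA7 (0.80), and the summed signal of all 7 was 3183.3 and 2977.3 in fad2, within the range of the other 4 lines at each temperature. PYK10 alone made up 2286.1 and 2268.8 of it, and without PYK10 the sum in fad2 was 897.2 against 388.1 to 515.2 at ambient temperature and 708.5 against 270.4 to 428.3 in the cold. Of the 8 nuclear photosynthesis genes none passed for fad2, with a lowest limma adjusted p of 0.0508 for PSBW (0.27). Unadjusted, 2 of them were below 0.05, against 3786 of 13649 probe sets. The part of these lists in the plastid values was not tested.

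35S-FAD3 differed from Col-0 in psbM alone, 1 of 67 higher (0.982% of all tested probe sets) and 0 lower (1.34%). At an unadjusted p under 0.05 there were 13 of the 67, against 2599 of 13649 probe sets. psbM did not pass without either Col-0 array or without either 35S-FAD3 array (limma adjusted p 0.0794 to 0.182), or with 12 arrays (0.0924). fab1 had no plastid gene that passed in either direction (0.0513% and 0.0733% of all tested probe sets). In fab1 an unadjusted p under 0.05 was reached by 1 plastid gene, against 1313 of 13649 probe sets. After psbM, its lowest p values belonged to rps2 (log2 difference 0.19, limma adjusted p = 0.62) and rpl20, of the large ribosomal subunit (−0.27, 0.656). rpl20 was 241.1 and 270.7 in fab1 against 295.4 and 320.2 in Col-0, 392.2 and 248.3 in fad2, 319.5 and 282.1 in 35S-FAD3 and 340.5 and 297.3 in fad3/7/8.

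fad3/7/8 had no plastid gene that passed either (2.43% and 2.64% of all tested probe sets). In fad3/7/8 an unadjusted p under 0.05 was reached by 9 plastid genes, against 2920 of 13649 probe sets. Its lowest p belonged to ycf3, an assembly factor of photosystem I, with 360.3 and 382.3 against 231.3 and 290.1 in Col-0, 294.7 and 249.0 in fab1, 363.6 and 357.7 in fad2 and 376.1 and 313.1 in 35S-FAD3. Col-0 was the lowest at ambient temperature, and the fad3/7/8 arrays overlapped with those of fad2 and 35S-FAD3 (log2 difference from Col-0 0.52, SE 0.144, limma adjusted p = 0.0642, and 0.0393 without the Col-0 cold array). rpoA followed, with 506.8 and 474.9, the highest of the 5 lines at each temperature (0.36, SE 0.107, limma adjusted p = 0.0742).

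The Col-aeq ambient array was compared with the 5 other ambient arrays with no test, since it is a single array. Of the 69 plastid genes 27 were at least 2-fold below the median of the other lines. All 27 were among the tested 67 (40.3%), against 4.24% of all tested probe sets. At least 4-fold below were 13 of the plastid genes, against 104 of 13649 tested probe sets. Below each of the 5 other arrays were 51 genes, against 32.3% of all tested probe sets. In the cold, Col-aeq had 0 plastid genes at least 2-fold lower or higher (0.212% and 0.139% of all tested probe sets), with 2 below each of the 5 other cold arrays (10.9% of all tested) and 11 above (12.5%). The low values thus came with the array of the high 3′ to 5′ ratios, and what those ratios contribute was not tested.

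psaA had a signal of 25.9 on that array, against 1830.9 in Col-0, 2049.8 in fab1, 2564.3 in fad2, 2353.0 in 35S-FAD3 and 1905.8 in fad3/7/8. This is 74.6-fold below their median on the log2(signal + 1.6) scale, a size that rests on a signal close to the filter level of 23.18. psaB, its neighbour in the cluster psaA-psaB-rps14, had 3306.0 against 3131.4 to 3936.9, a log2 difference of −0.03. In the cold, psaA was at 2024.5 in Col-aeq against 1451.8 to 1954.7.

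psbD had 98.8 on the Col-aeq ambient array, against 817.8, 1464.5, 1274.5, 1200.3 and 1130.4 in Col-0, fab1, fad2, 35S-FAD3 and fad3/7/8, which is 12.0-fold below the median. The genes behind it in the same cluster differed far less, psbC by −0.34 and psbZ by 0.07. atpI, a membrane subunit of the ATP synthase, had 15.6 against 100.2, 138.3, 152.4, 218.9 and 182.9 (−3.16), and its cluster neighbours atpH, atpF and atpA were at −2.06, −0.81 and −0.92. The atpI signal is under the filter level of 23.18 and was not shown to be above background, so its fall may be understated; of the 27 genes the same holds for rpoB, psbN and ndhH, 4 in all. On this array psaA, psbD and atpI were each far below all 5 other ambient arrays.

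By class, 5 of 7 photosystem I genes, 7 of 15 of photosystem II, 6 of 10 of NDH, 3 of 4 of the RNA polymerase, 2 of 6 of the ATP synthase, 2 of 15 ribosomal genes and 2 of 5 others were at least 2-fold lower, and none of the 6 cytochrome b6f genes. Median log2 differences were −1.41 for photosystem I, −0.82 for photosystem II, −1.10 for NDH, −1.14 for the polymerase, −0.87 for the ATP synthase, −0.47 for the cytochrome complex and −0.39 for the ribosome. rbcL was at −0.24. Classes are thus mixed with clusters, since psaC, for example (−2.86), lies in the NDH cluster with ndhH (−3.10) and ndhA (−2.49).

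Some plastid genes were higher on the Col-aeq ambient array, 9 of 69 above each of the 5 others (7 of 67 tested, 10.4%, against 23.1% of all tested probe sets) and 1, the dim ndhF, at least 2-fold (0.916%). ndhF had 40.7 against 10.4, 11.7, 19.8, 35.3 and 9.7 in Col-0, fab1, fad2, 35S-FAD3 and fad3/7/8. petA, cytochrome f, had 1530.2 against 780.5, 765.6, 810.9, 839.2 and 811.7 (0.91), while cemA and ycf4 of its cluster were at −1.43 and −1.41. petG, a small subunit of the same complex, had 64.3 against 51.4, 39.3, 36.6, 40.2 and 30.8 (0.69).

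rps14, at the end of the psaA cluster and too dim for the tests, had 35.2 against 19.6, 26.1, 29.4, 23.4 and 18.0 (0.56). atpE, behind atpB, had 4593.2 against 3245.4, 3417.3, 3692.0, 3847.0 and 3629.3 (0.34), while atpB was at −0.24. Clusters were compared where 2 or more of their genes were counted, 13 clusters with 53 genes in all. In 8 of 13 the first counted gene from the 5′ end had the lowest log2 difference. In 6 of 13 the last counted gene, towards the 3′ end, had the highest. Exceptions included the ndhC-ndhK-ndhJ cluster, with 0.17, −2.48 and −1.21 in that order. In the ribosomal cluster rps19, the first gene counted, was at 0.24 and rpl22 behind it at −2.29. However, rpl23 lies ahead of rps19 and was not counted, because its probe set is listed with several gene entries. rpl23 was at −2.43, lower than each counted gene of that cluster. With rpl23 counted as its first gene, the lowest gene would be the first there too. Its neighbour rpl2, likewise uncounted, was at −0.17, so the cluster would not run steadily from low to high. Whether the order within clusters differs from chance was not tested.

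**Figure D5:**
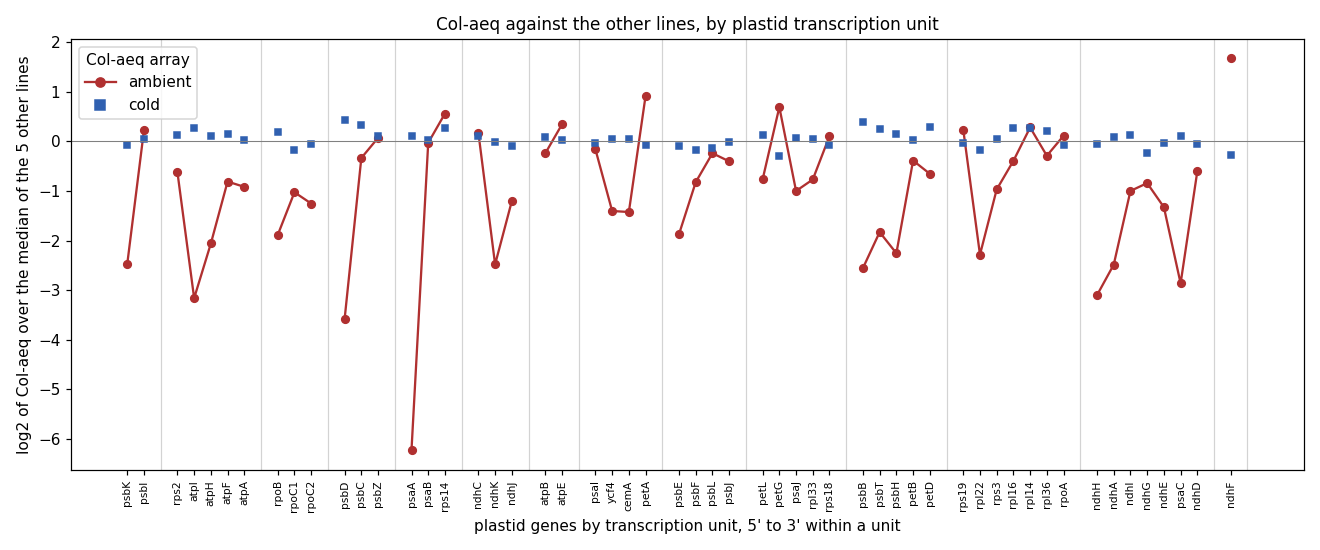
Log2 of the Col-aeq signal over the median of the 5 other lines at the same temperature, for the plastid genes assigned to 13 transcription clusters and ndhF, ordered 5′ to 3′ within a cluster; red circles joined by lines are the ambient array and blue squares the cold array. The cold points lie between −0.31 and 0.55, while the ambient points run from −6.22 for psaA to 1.67 for ndhF and differ by up to 6.78 within a cluster.

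Genes outside the plastid were not low on this array to the same extent. Of the 8 nuclear photosynthesis genes 0 were at least 2-fold lower, with a median log2 difference of 0.10, and their summed signal was 26310.7 against 22030.8 to 26103.6. Of 16 mitochondrial genes, most of them dim, 1 was at least 2-fold lower and 1 at least 2-fold higher. Their summed signal was 542.4 against 645.5 to 714.3. Only 5 of the 16 were bright enough for the tests. Of these 5, 1 was at least 2-fold lower and 2 were below each of the 5 other ambient arrays.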

How the data were processed

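The authors deposited linear intensity values, the MAS5 signals of 22810 probe sets on 12 arrays; the submitters' processing notes name GCOS and MAS5 without versions or settings. Per the labels' protocols, a Qiagen RNeasy procedure gave the RNA and the Affymetrix IVT kit the labelled target. The mean signal trimmed by 2% at each end was 100.0 on each array, and no further scaling was applied. For arrays no depth exists, and 1 array per line and temperature limits the precision.

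Genes came from GEO's platform table (14016 probe sets, 13513 of them with 1 gene and 503 with several); the other 8794 probe sets on the array had no gene listed. Of the 13513, 13436 matched RefSeq TAIR10.1, used for names. Signals were analysed as log2(signal + 1.6), the 10th percentile of all values, which understates changes of dim genes. Probe sets with a mean over 10 arrays at or above the 40th percentile (23.18) were kept. limma 3.58.1 (R 4.3.3) fitted line and temperature with an intensity trend (4 residual degrees of freedom); cold changes were fitted on 5 within-line differences (3 residual degrees of freedom). SE values are limma's moderated ones. The fits were tested on simulated data. Tables were made in Python 3.11.15 (NumPy 2.4.6, pandas 2.3.3) and figures with matplotlib 3.10.9.

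Values on each array are given for up to 6 genes per direction that passed in the cold, the gene with the lowest p of each class, up to 3 per direction for each line (or the 3 with the lowest p), and for Col-aeq the 5 largest rises and 3 largest falls. Other genes with values, such as psbB, psbC and rpoC1, were chosen after their values were seen. The members, lists and clusters (from textbook knowledge of plastid operons) were chosen with earlier results of these data known. Of the lists, 8 of 46 nuclear photosynthesis, 3 of 12 NDH, 2 of 24 ribosome, 1 of 42 transcription and RNA, and 7 of 12 root genes had a probe set. Alternatives were 12 arrays, quantile normalization, median centring, a filter at the 60th percentile or none, an eBayes step with no intensity trend, the 25th percentile as pseudocount, the mean of both Columbia lines as control, and leaving out lines or arrays. No sequence was used here.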

Additional observations from a re-analysis of the deposited data

Results flagged for a closer look

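For each function class, the median deviation from the 10-array gene means (log2) was compared among the 6 arrays of a temperature, and a single array far from the nearest other by Dixon's 95% criterion was singled out; chance does this in about 1 in 20 groups. The Col-aeq ambient array was low in the median over the 69 plastid genes (−0.59), though not in each gene. It was also low in the medians of photosystem I (−1.33), photosystem II (−0.73), cytochrome b6f (−0.37), the ATP synthase (−0.72) and NDH (−1.07). The fad2 cold array was low for Rubisco, which is rbcL alone (−0.24), and high in the median of the 4 RNA polymerase genes (0.23). Of these, rpoA went the other way, with 285.2 on that array against 338.3 to 474.9 on the other cold arrays.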

How the results depend on the processing

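By replicate number, no paired analysis was possible because every array carries the same number; the ambient and cold arrays of a line were paired by the line term of the fit. The count of 15 plastid genes that fell in the cold was 4 with 12 arrays, 7 with median centring, 6 without a filter and 5 without an intensity trend, and 4 to 28 when a line was left out; the 2 that rose became 2 to 3. For fad2 the 6 higher genes became 1 with 12 arrays, 3 with median centring, 1 without a filter, 1 without an intensity trend, 2 against the mean of both Columbia lines, and 0 to 8 when an array was left out. The 2 lower genes became 1, 7, 1 and 1 under the first 4 of these, and 0 to 2 when an array was left out. The 1 higher gene of 35S-FAD3 became 0 with 12 arrays, quantile normalization, no filter, no intensity trend and the mean control, and 0 to 1 when an array was left out; fad3/7/8 went from 0 to 0 to 1 higher genes when an array was left out. In the cold, 24 of 67 differences turned sign with 12 arrays, 4 of them of genes that had passed: psaA (0.83), psaC (0.15), psaJ (0.03) and cemA (0.020). rpl20 in fab1 turned against the mean control (0.015); the cause was not tested. The comparison of 4 altered lines with Col-0 was chosen after seeing the data. Genes with signals near the filter level of 23.18, such as rps14, ndhF and psbN, are the least reliable in size.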

Other observations

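Genes of the inverted repeat are present as 2 copies, and their probe sets are listed with 2 gene entries, so they were kept out of the 69. There are 8 such probe sets for 7 genes. ycf1, a large protein of the inner envelope, was lower in the cold (log2 difference −0.35, limma adjusted p = 0.0182), and of 2 probe sets for rps12, a ribosomal gene joined by trans-splicing, 1 was lower (−0.39, limma adjusted p = 0.0203) and the other did not pass (−0.23, 0.0643). rpl2 (−0.10), rpl23 (−0.11), rps7 (−0.15) and ndhB (0.08) did not pass, and ycf2 was too dim for the test. On the Col-aeq ambient array rpl23 had 295.3, against 1287.3 in Col-0, 1394.1 in fab1, 1929.2 in fad2, 1655.0 in 35S-FAD3 and 1597.0 in fad3/7/8 (−2.43). rpl2, its neighbour, was at −0.17, and the rps12 probe sets were at −1.38 and −1.30.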
